A study of Mus musculus with 20 samples.

Results

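The question addressed here is whether 6 weeks of treadmill training changed the muscle transcriptome of mice labelled as lacking BMAL1 in muscle differently from that of their vehicle controls. It is answered by the interaction, the training change in the knockout minus the training change in vehicle, on the log2 scale. A positive interaction means that the trained-to-sedentary ratio was higher in the knockout. All 20 libraries of the series belong to this comparison. The model held 17 samples, because 1 library was left out and 2 pairs of libraries were each counted as 1 sample, and it tested 14359 of the 21844 genes in the table.

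All mice carried Cre and floxed Bmal1 alleles, per the labels (genotype Cre+:iMSBmal1 fl/fl), so the controls differ from the knockouts by treatment and not by allele. The vehicle sedentary group (5 samples in the fit) received vehicle and no exercise. The vehicle trained group (4 samples) received vehicle and trained over 6 weeks. The knockout sedentary group (5 samples), labelled iMSBmal1KO, did not exercise, and the knockout trained group (3 samples), with the same label, trained over 6 weeks. The agent that induced Cre, its promoter, and the age and sex of the mice are not given in the sources used here. The sample labels put collection at 48 hours and the series text at 47 hours after the last bout. The labels disagree on the muscle, with gastrocnemius in one field and tibialis anterior in another, and it is named here as hindlimb muscle. Nothing in the labels says whether libraries came from separate animals, so p-values measure the spread between these samples, which may be technical.

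BMAL1, encoded by Arntl, pairs with CLOCK and activates genes with E-box elements, among them the Period, Cryptochrome and REV-ERB genes that feed back on it. In skeletal muscle this clock sets the daily timing of glucose and lipid handling. Endurance training is known for raising mitochondrial content, fat oxidation and capillary supply, in part through the coactivator PGC-1alpha and the nuclear receptor ERRalpha.

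Total estimated counts lay between 10610333 and 19153527 per library. The 10 muscle fibre markers (among them Ckm, Acta1 and Myh4) were all tested and summed to between 84958.9 and 108220 CPM (counts scaled by the column sum) over the samples. Knockout trained libraries 1 and 4, and 3 and 5, differed far less than other libraries and were summed. Their noise ratio at high counts was at most 2.38, against at least 6.38 in the other pairs among 190. Vehicle trained library 2 differed by more than 2-fold from the mean of its group's other libraries at 3744 genes, against at most 584 in any other sample, and was left out of the model. The 584 was vehicle trained sample 3, measured against a mean that held library 2, and without that library it was 240. Among the samples of the fit the highest was then the sum of knockout trained 1 and 4, at 503 genes. The targeted gene was not lower in libraries labelled knockout: Arntl was at 5.68 to 7.93 CPM in vehicle sedentary and 10.96 to 18.9 CPM in knockout sedentary samples. The table gives 1 value for the whole gene, and the deleted exons are not given in the sources used here, so this level does not check the deletion. Per2 and Dbp, 2 genes under BMAL1 control, were lower in every library labelled knockout than in every vehicle sample of the fit. Arntl stood at 132 CPM in vehicle trained library 2. Knockout below means the libraries with that label.

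No single gene passed the test of the interaction after adjustment. The count was 0 of 14359 genes, a background of 0%, and the smallest Benjamini-Hochberg adjusted p in edgeR's quasi-likelihood test was 0.212. At an unadjusted p under 0.05 there were 1643 genes, or 11.4% of those tested, with 868 higher (6.04%) and 775 lower (5.4%) in the knockout. The median SE was 0.22, and for 70.9% of genes the 95% interval of the interaction lay within 1 log2 unit of 0. Limma-voom called 0 genes, and 1162 (762 higher, 400 lower) with sample quality weights. DESeq2 called 116 (95 higher, 21 lower), which is 3.6% of the 3223 genes that it adjusted over, and all 116 had an unadjusted edgeR p under 0.05. Calls therefore differed between tools. With vehicle trained library 2 in the fit, edgeR called 0 genes and 1076 had an unadjusted p under 0.05.

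The 2 training changes that make up the interaction were as follows. In vehicle muscle no gene passed (0%, smallest adjusted p = 0.0612, edgeR), with 1869 genes at an unadjusted p under 0.05 and 22 called by DESeq2. In the knockout 121 genes passed in edgeR (0.843%), of which 100 rose and 21 fell. That count rests on single samples. It was 0 without knockout sedentary replicate 1, 2 or 3, without knockout trained replicate 2, without the sum of knockout trained 3 and 5, or with vehicle trained library 2. It was 491 without vehicle trained replicate 1, 1760 without the sum of knockout trained 1 and 4, and between 11 and 64 without vehicle sedentary replicate 1, 2, 3 or 5, knockout sedentary replicate 4 or 5, or vehicle trained replicate 5. A gene that passed in the knockout only is therefore described by both changes and the interaction between them. Changes of opposite sign, each at an unadjusted p under 0.05, were found at 76 genes (0.529%), 25 higher and 51 lower in the knockout.

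Scaling mattered for the balance of directions. When libraries were scaled by column sum only, the median interaction of all genes moved from 0.00 to -0.11, and the genes at an unadjusted p under 0.05 were 358 higher and 1400 lower, 20.4% higher against 52.8% with TMM scaling. Directions below are relative to the median of all genes with TMM scaling.

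**Figure D1:**
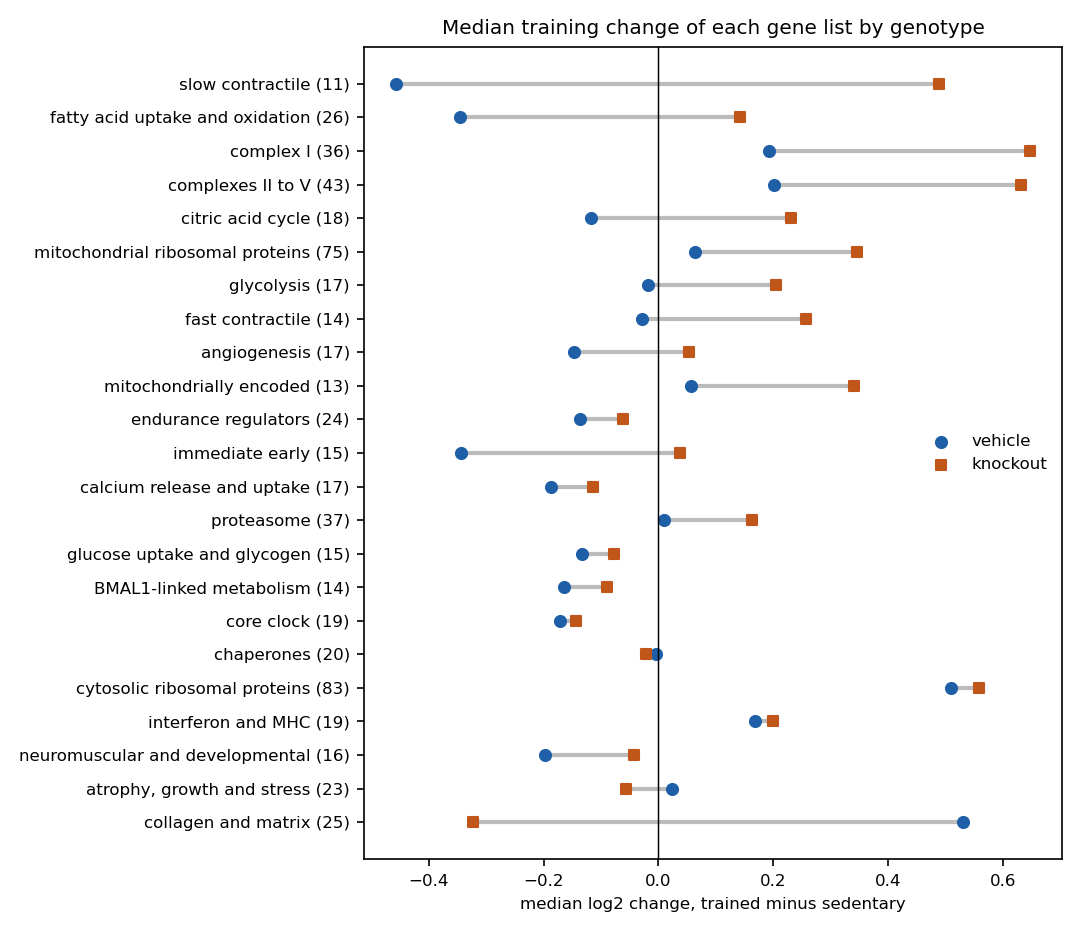
Median log2 training change of 23 gene lists in vehicle (circles) and knockout (squares) muscle, ordered by median interaction, with the number of tested members in brackets. Slow contractile genes run from -0.46 in vehicle to 0.49 in the knockout and matrix genes from 0.53 to -0.32, while cytosolic ribosomal proteins stand near 0.5 in both.

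Nuclear respiratory chain genes had the more positive training change in the knockout throughout. All 36 nuclear genes of complex I, which passes electrons from NADH to ubiquinone, had a positive interaction, and 20 had an unadjusted p under 0.05 (6.04% of all genes did so in that direction). Their median interaction was 0.50, from a median training change of 0.19 in vehicle and 0.65 in the knockout, against 0.00 for all genes. All 43 genes of complexes II to V also had a positive interaction, 20 of them at an unadjusted p under 0.05, with a median of 0.46 and training changes of 0.20 and 0.63. In the knockout 16 complex I genes and 15 genes of complexes II to V rose with training after adjustment over all genes. None passed in vehicle. Genes of a list share the same samples, so their counts are not separate evidence. As mean log2(CPM + 1) over each list in each sample, scaled by column sum, the interaction was 0.34 (SE 0.21) for complex I. It was 0.30 (SE 0.20) for complexes II to V. In lists described below it was 0.30 (SE 0.097) for the citric acid cycle and 0.36 (SE 0.13) for fatty acid genes. For slow contractile genes it was 0.92 (SE 0.42), and for matrix genes -0.97 (SE 0.28). The 13 genes encoded by mitochondrial DNA had a median interaction of 0.17 (0.067 with column-sum scaling), and 0 had an unadjusted p under 0.05. Without vehicle trained replicate 3 the median was 0.44 and the count 5, without the sum of knockout trained 1 and 4 the count was 1, and without vehicle trained replicate 4 the median was 0.030. The one with the smallest p, mt-Nd6, encodes a complex I subunit and had an interaction of 0.50 (SE 0.30, unadjusted p = 0.111).

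Cyc1, the cytochrome c1 subunit of complex III, had the smallest p among the higher genes named here. It stood at 312, 332, 292, 306 and 296 CPM in the vehicle sedentary samples and at 264, 268, 241 and 258 CPM in the vehicle trained samples. The knockout sedentary samples were at 307, 300.0, 290.4, 329 and 315 CPM and the knockout trained samples at 392, 358 and 369 CPM. All 4 vehicle trained samples lay below every vehicle sedentary sample, and all 3 knockout trained samples above every knockout sedentary sample. The training change was -0.22 (SE 0.0825) in vehicle and 0.42 (SE 0.0885, edgeR adjusted p = 0.0347) in the knockout. The interaction was 0.64 (95% interval 0.39 to 0.90, SE 0.121), with an unadjusted p = 4.65e-05 and an adjusted p = 0.212 in edgeR. It ranged from 0.53 to 0.79 over 29 alternatives, and DESeq2 called it (adjusted p = 4.99e-05).

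The 5 respiratory genes described next had vehicle changes between -0.13 and -0.01. Ndufs7, a complex I subunit that holds an iron-sulfur cluster, was at 143, 153, 148, 158 and 139 CPM in vehicle sedentary and 180.1, 131, 125 and 137 CPM in vehicle trained samples. It was at 126, 139.6, 127, 147 and 127 CPM in knockout sedentary and 166, 195 and 195 CPM in knockout trained samples. Vehicle trained sample 1 was the highest of its group and above all vehicle sedentary samples, whereas the knockout groups did not overlap. Its training change was -0.01 in vehicle and 0.63 in the knockout, where it rose (adjusted p = 0.0296, edgeR), and its interaction was 0.64 (SE 0.162, unadjusted p = 0.000842). Ndufs3, another complex I subunit, also rose in the knockout (0.47, adjusted p = 0.0341, edgeR), with an interaction of 0.51. The ATP synthase subunit Atp5d (interaction 0.59) and the Rieske iron-sulfur protein Uqcrfs1 (0.56) rose in the knockout too, by 0.55 and 0.52. Sdhc, which anchors succinate dehydrogenase in the membrane, had a change of -0.13 in vehicle and 0.44 in the knockout, and an interaction of 0.57.

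The number of respiratory genes at an unadjusted p under 0.05 depended on single samples, although the median interaction of each list stayed positive. For complex I it was 32 without vehicle trained replicate 1 and 33 without the sum of knockout trained 1 and 4. It was 11 without knockout trained replicate 2, 11 without the sum of 3 and 5, and 11 with column-sum scaling. For complexes II to V it was 33 without vehicle trained replicate 1 and 34 without the sum of knockout trained 1 and 4. Over all alternatives the median interaction of complex I lay between 0.37 and 0.67, and that of complexes II to V between 0.32 and 0.63. As mean log2(CPM + 1) over complex I, vehicle trained sample 1 was at 7.53 and the other vehicle trained samples at 6.91 to 7.08. The knockout trained samples were at 7.27, 7.74 and 7.63 on the same scale. Vehicle trained sample 1 and knockout trained sample 2 also stood above the others in blood markers, at 7.30 and 7.58 against 5.10 to 6.41 in the rest of the fit. In adipocyte markers they were at 6.36 and 5.53, against 2.705 to 5.34. The sum of knockout trained 3 and 5 was at 6.09 and 4.86 in these. The part of these markers in the result was not tested.

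**Figure D2:**
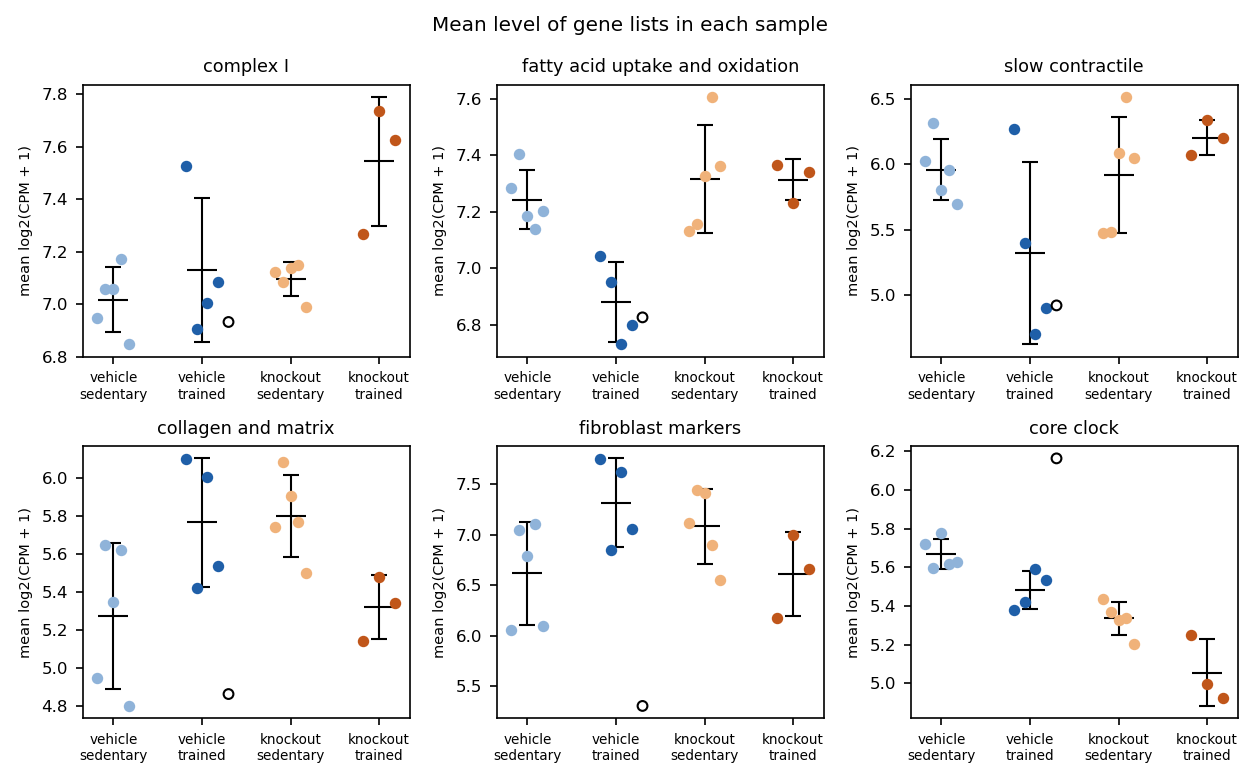
Mean log2(CPM + 1) of 6 gene lists in each sample, by group, with the group mean and SD; the open circle is vehicle trained library 2, which is outside the fit and the mean. The 4 vehicle trained samples lie below all vehicle sedentary samples for fatty acid genes, and 1 vehicle trained sample stands above the other 3 for complex I and slow contractile genes.

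Enzymes that feed the respiratory chain differed in the same direction, with a vehicle change below 0. Of 18 citric acid cycle genes, 18 had a positive interaction and 12 an unadjusted p under 0.05, with a median of 0.38 from -0.12 in vehicle and 0.23 in the knockout. Idh3a, the catalytic subunit of NAD-dependent isocitrate dehydrogenase, had an interaction of 0.43 (SE 0.12, unadjusted p = 0.00219), from -0.08 in vehicle and 0.34 in the knockout. For its partner subunit Idh3g the interaction was 0.49, and for malate dehydrogenase Mdh2 0.49. Of 26 genes of fatty acid uptake and oxidation, 24 had a positive interaction and 18 an unadjusted p under 0.05, with a median of 0.51. All 26 had a negative training change in vehicle (median -0.35, 18 at an unadjusted p under 0.05), and 20 had a positive one in the knockout (median 0.14, 6 at an unadjusted p under 0.05). Of all 14359 genes tested, 711 were lower after training in vehicle and 1595 higher after training in the knockout at that threshold. No member of either list passed in either genotype after adjustment over all genes. Across the alternatives between 8 and 16 citric acid cycle genes and between 13 and 23 fatty acid genes had an unadjusted p under 0.05, each of them higher.

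Slc27a1, which encodes the fatty acid transporter FATP1, was at 87.4, 111, 93.1, 83.9 and 104 CPM in vehicle sedentary samples and 70.6, 71.6, 61.5 and 59.7 CPM in vehicle trained samples. In the knockout it was at 90.2, 85.9, 95.3, 136 and 109 CPM in sedentary and 117, 91.1 and 109.9 CPM in trained samples. The vehicle groups did not overlap and the knockout groups did. Its interaction was 0.69 (SE 0.206, 95% interval 0.26 to 1.13, unadjusted p = 0.00339, adjusted p = 0.262 in edgeR), from a training change of -0.51 in vehicle and 0.18 in the knockout. Acads, the short-chain acyl-CoA dehydrogenase, had changes of -0.20 and 0.30 and an interaction of 0.50. Echs1, the short-chain enoyl-CoA hydratase of beta-oxidation, had changes of -0.08 and 0.52 and an interaction of 0.60.

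Among 24 regulators of endurance metabolism Esrra had the smallest p. It encodes ERRalpha, a nuclear receptor that drives respiratory chain and fat oxidation genes. It was at 118, 114, 101, 113 and 117 CPM in vehicle sedentary and 92.3, 92.4, 85.1 and 84.9 CPM in vehicle trained samples, without overlap. In the knockout it was at 101, 90.6, 91.7, 113 and 95.8 CPM in sedentary and 131, 98.9 and 107 CPM in trained samples, with overlap. The training change was -0.31 (SE 0.0945) in vehicle and 0.34 (SE 0.101) in the knockout, and neither passed after adjustment (adjusted p = 0.343 and 0.0939, edgeR). The interaction was 0.65 (95% interval 0.35 to 0.94, SE 0.139), with an unadjusted p = 0.000188 and an adjusted p = 0.212 in edgeR. DESeq2 called it (adjusted p = 0.00401), and it ranged from 0.54 to 0.85 over 29 alternatives. Only 3 of the 24 regulators (12.5%, against 6.04% of all genes) were higher at an unadjusted p under 0.05, and 0 were lower. The 3 were Esrra, the deacetylase gene Sirt3 (interaction 0.48) and Perm1 (0.49), a muscle target of PGC-1 and ERR. Ppargc1a itself, which encodes PGC-1alpha, had an interaction of 0.22 (95% interval -0.21 to 0.66, unadjusted p = 0.3). With vehicle trained library 2, where it stood at 556 CPM, that value was -1.20. The median of the list was 0.15, and -0.03 with that library.

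Further genes among the higher ones were named by their small p and not by function. Coq10a, a carrier of ubiquinone, stood at 239, 268, 241, 247 and 239 CPM in vehicle sedentary and 222, 207, 205 and 219 CPM in vehicle trained samples. It stood at 282, 253, 264, 289.8 and 254 CPM in knockout sedentary and 317, 296 and 313 CPM in knockout trained samples. Trained samples lay below all sedentary samples in vehicle and above them all in the knockout, with an interaction of 0.53 (SE 0.113, unadjusted p = 0.000198). Coq9, which is needed to make ubiquinone, rose in the knockout (0.36, adjusted p = 0.0477, edgeR), with -0.15 in vehicle and an interaction of 0.50. Chchd10, a protein of the intermembrane space, rose by 0.58 in the knockout (adjusted p = 0.0296, edgeR), with -0.13 in vehicle and an interaction of 0.70. Acot7, an acyl-CoA thioesterase, and Pxmp2, a peroxisomal membrane channel, rose by 0.71 and 0.68, with interactions of 0.81 and 0.77. Neurl2, a ubiquitin ligase adaptor of muscle, rose by 0.53, with an interaction of 0.60. Hpn, the membrane protease hepsin, had an interaction of 1.05. Hpn is present at few reads, with group means of 7.77 CPM in vehicle sedentary, 4.98 in vehicle trained, 5.76 in knockout sedentary and 7.11 in knockout trained samples. All of the higher genes named by this rule had the same adjusted p for the interaction, 0.212 (edgeR). Exons of Neurl2 overlap those of Ctsa, Esrra those of Trmt112, Coq9 those of Ciapin1, Chchd10 those of Mmp11 and Pxmp2 those of a predicted gene. Their values may include reads of those genes. The same holds for Atp5d, Ndufs3, Echs1, Sirt3, Myh7, Myh2, Myl3, Mb, Atp2a2, Fn1, Col3a1, Pdgfra, Pi16, Acss3, Gapdh, Nos3, mt-Nd6 and, among clock genes, Arntl, Nr1d1, Dbp, Tef and Cry2.

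**Figure D3:**
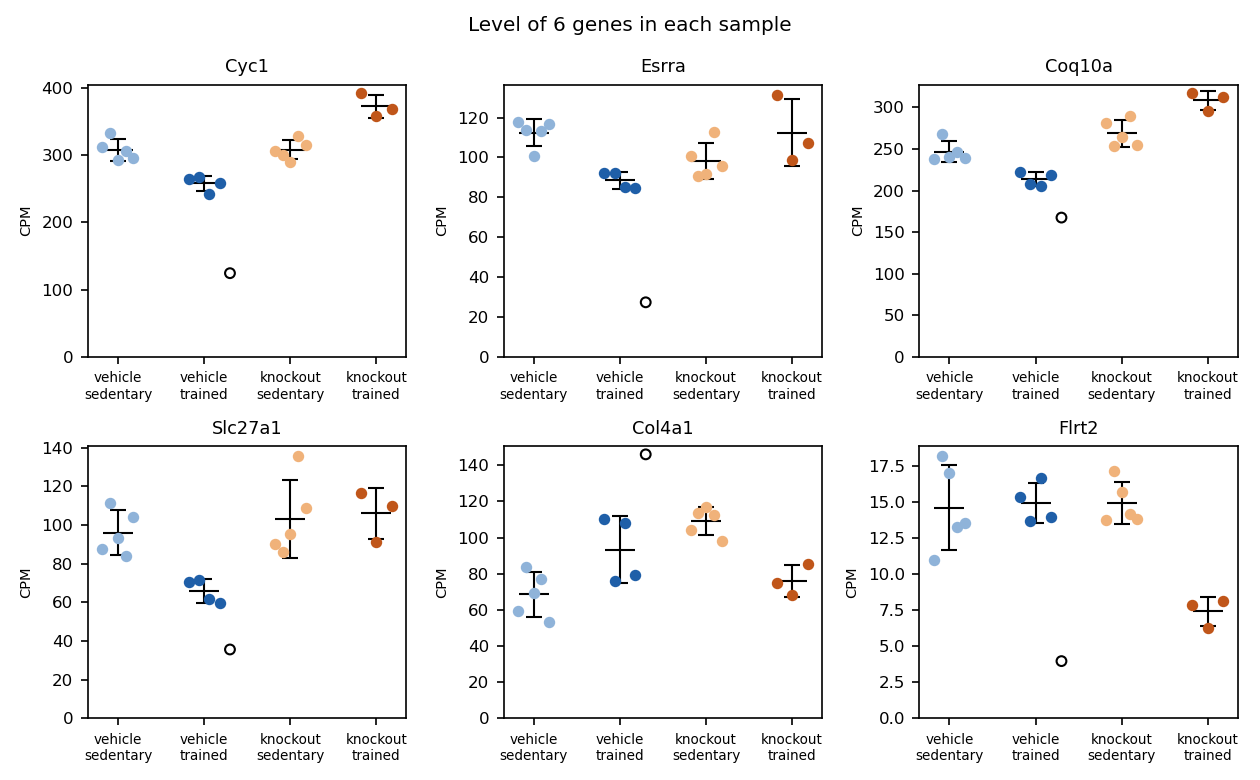
CPM of Cyc1, Esrra, Coq10a, Slc27a1, Col4a1 and Flrt2 in each sample, by group, with the group mean and SD; the open circle is vehicle trained library 2, outside the fit and the mean. For Cyc1 and Coq10a the trained samples of the fit lie below the sedentary samples in vehicle and above them in the knockout, and for Flrt2 only the 3 knockout trained samples stand apart, at 6.27 to 8.13 CPM.

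Slow contractile genes had the highest median interaction of the 23 lists, 0.82, with training changes of -0.46 in vehicle and 0.49 in the knockout. All 11 were positive and 7 had an unadjusted p under 0.05. Myh7, the slow myosin heavy chain, was at 302, 433, 236, 241 and 245 CPM in vehicle sedentary and 231, 185, 93.8 and 78.5 CPM in vehicle trained samples. It was at 121, 129, 176, 364 and 264 CPM in knockout sedentary and 244, 255 and 249.8 CPM in knockout trained samples. The vehicle groups did not overlap, the trained ones being lower, and the knockout trained samples lay inside the range of their sedentary group. The interaction was 1.33 (95% interval 0.29 to 2.37, SE 0.495), with an unadjusted p = 0.0148 and an adjusted p = 0.323 in edgeR. Slow troponin T (Tnnt1, 1.30), slow tropomyosin (Tpm3, 0.82) and the slow essential light chain (Myl3, 1.09) had interactions of like size. As mean log2(CPM + 1) over the list, vehicle trained samples were at 6.27, 5.40, 4.71 and 4.91, so sample 1 stood with the sedentary samples (5.70 to 6.31). Without it the median interaction was 1.49. The count of 7 was unstable. It was 9 without vehicle trained replicate 1, 2 without vehicle trained replicate 4 or 5, and 3 without the sum of knockout trained 3 and 5. It was 1 without knockout trained replicate 2, and 4 without vehicle sedentary replicate 1 or 2, without knockout sedentary replicate 1 or 2, with column-sum scaling or with robust shrinkage.

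Fast contractile genes had a median of 0.23 (0.093 with column-sum scaling). Of the 14, 3 (21.4%, against 6.04% of all genes) were higher at an unadjusted p under 0.05. That count was 0 without the sum of knockout trained 3 and 5, and 1 without vehicle trained replicate 4 or knockout trained replicate 2. Among the 3 was Myh2, the myosin of oxidative fast fibres, with training changes of -0.87 in vehicle and 0.05 in the knockout and an interaction of 0.92 (SE 0.374). Atp2a2, the calcium pump of slow fibres, had the same vehicle change of -0.87, -0.11 in the knockout and an interaction of 0.76. Sln, which encodes sarcolipin, an inhibitor of that pump, went the other way at -0.97, but its 95% interval ran from -2.29 to 0.35 (unadjusted p = 0.14). Its samples spread widely, at 38.1, 68.2, 18.1, 15.9 and 16.1 CPM in knockout sedentary and 31.6, 11.5 and 11.8 CPM in knockout trained muscle, against 1.97 to 5.25 CPM in the vehicle samples of the fit. Mb, which encodes myoglobin, had an interaction of 0.71 (SE 0.236). The 10 muscle fibre markers, Mb among them, had a median interaction of 0.29 (0.16 with column-sum scaling), and 9 were positive. Their median training change was -0.004 in vehicle and 0.39 in the knockout. Of these markers 2 (20%) were higher at an unadjusted p under 0.05, against 6.04% of all genes.

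Collagen and matrix genes had the opposite pattern. All 25 had a negative interaction, 20 with an unadjusted p under 0.05 (5.4% of all genes did so in that direction), with a median of -0.83. All 25 had a positive training change in vehicle (median 0.53, 22 at an unadjusted p under 0.05), and 24 had a negative one in the knockout (median -0.32, 9 at an unadjusted p under 0.05). Of all 14359 genes tested, 1158 were higher after training in vehicle and 921 lower after training in the knockout at that threshold. No matrix gene passed in either genotype after adjustment over all genes.

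Col4a1, a basement membrane collagen chain, was at 59.4, 83.9, 69.5, 77.2 and 53.5 CPM in vehicle sedentary and 110.4, 75.7, 108 and 79.5 CPM in vehicle trained samples, with overlap. It was at 104, 114, 117, 113 and 98.1 CPM in knockout sedentary and 74.6, 68.0 and 85.6 CPM in knockout trained samples, without overlap. The sedentary groups also did not overlap, and 2 of the 3 knockout trained samples lay inside the vehicle sedentary range of 53.5 to 83.9 CPM. The training change was 0.47 (SE 0.121) in vehicle and -0.36 (SE 0.133) in the knockout, and the interaction -0.84 (95% interval -1.22 to -0.46, SE 0.18, unadjusted p = 0.000193, adjusted p = 0.212 in edgeR). Its interaction stayed between -1.02 and -0.63 over 29 alternatives, and DESeq2 called it (adjusted p = 0.00495). Its exons overlap those of Col4a2, the chain it assembles with, which had an interaction of -0.56. Fn1, the adhesive matrix protein fibronectin, ranged from 47.1 to 105 CPM in vehicle sedentary, 78.4 to 181 CPM in vehicle trained, 58.7 to 144 CPM in knockout sedentary and 42.1 to 71.6 CPM in knockout trained samples. Groups overlapped in both genotypes, and the interaction was -1.61 (95% interval -2.46 to -0.76, SE 0.406). Col5a2, a fibrillar collagen chain, had one of -1.19.

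Fibroblast markers moved with the matrix genes. All 7 had a negative interaction and 6 an unadjusted p under 0.05, with a median of -0.98 from 0.69 in vehicle and -0.33 in the knockout. Their summed CPM ranged from 1010 to 2218 in vehicle sedentary, 1695 to 3062 in vehicle trained, 1269 to 2380 in knockout sedentary and 969.9 to 2057 in knockout trained samples. None of the 7 was at 0, and 2 of them, Col1a1 and Col3a1, are collagens themselves. Dcn, Lum and Dpt encode matrix proteins too, and Dcn had the highest mean level of the 7, at 1295 CPM. The markers are therefore not a separate observation from the matrix genes. Pdgfra, a receptor that marks muscle fibroblasts, had an interaction of -0.98 (SE 0.355) and Pi16, a marker of adventitial fibroblasts, one of -1.32. The 9 macrophage markers were also all negative (median -0.89). Of these, 1 (11.1%, against 5.4% of all genes), the scavenger receptor gene Cd163 (-1.47), had an unadjusted p under 0.05. That count was 9, with a median of -1.72, without knockout trained replicate 2, and 2 without vehicle sedentary replicate 4, knockout sedentary replicate 5 or vehicle trained replicate 5. It was 0 without knockout sedentary replicate 3, vehicle trained replicate 1 (median -0.50), the sum of knockout trained 1 and 4 (median -0.50) or the sum of 3 and 5. The part of these cells in the matrix result was not tested, and in bulk muscle fewer cells of a type and less RNA per cell cannot be told apart. With vehicle trained library 2, 10 matrix genes had an unadjusted p under 0.05 (median -0.67) and 1 fibroblast marker did. Without the sum of knockout trained 1 and 4, 3 fibroblast markers did.

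The genes with the smallest p among the lower ones included Flrt2, a transmembrane adhesion and guidance protein. It stood at 10.98, 18.2, 17.02, 13.2 and 13.5 CPM in vehicle sedentary and 15.3, 13.7, 16.7 and 13.9 CPM in vehicle trained samples. It stood at 13.8, 17.1, 15.7, 14.2 and 13.8 CPM in knockout sedentary and 7.84, 6.27 and 8.13 CPM in knockout trained samples. The 3 knockout trained samples were below all others of the fit. Flrt2 fell by 0.85 in the knockout (SE 0.145, adjusted p = 0.0232, edgeR), with 0.06 in vehicle and an interaction of -0.91 (95% interval -1.31 to -0.51, unadjusted p = 0.000154, adjusted p = 0.212 in edgeR). Vehicle trained library 2 was also low, at 3.96 CPM, and with it the unadjusted p was 0.0786. Tasor2, Asah2 (a neutral ceramidase) and Fgd4 (a Cdc42 exchange factor) fell in the knockout as well, by 0.62, 0.49 and 0.61, with vehicle changes of 0.04, 0.10 and 0.12. Ssc5d, Adcy7 (an adenylyl cyclase), Egfr (the epidermal growth factor receptor) and Acss3 passed in neither genotype and had interactions of -1.12, -1.12, -1.08 and -0.67.

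The core clock genes did not share a direction. Of 19 tested, 10 had a positive and 9 a negative interaction, with a median of 0.08, and the median training change was -0.17 in vehicle and -0.14 in the knockout. At an unadjusted p under 0.05, 1 was higher and 1 lower (5.26% each, against 6.04% and 5.4% of all genes). With column-sum scaling the median was -0.04, with 1 higher and 4 lower. The lower one with TMM scaling was the D-box activator Hlf (-0.44, 95% interval -0.88 to -0.01, unadjusted p = 0.0467).

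**Figure D4:**
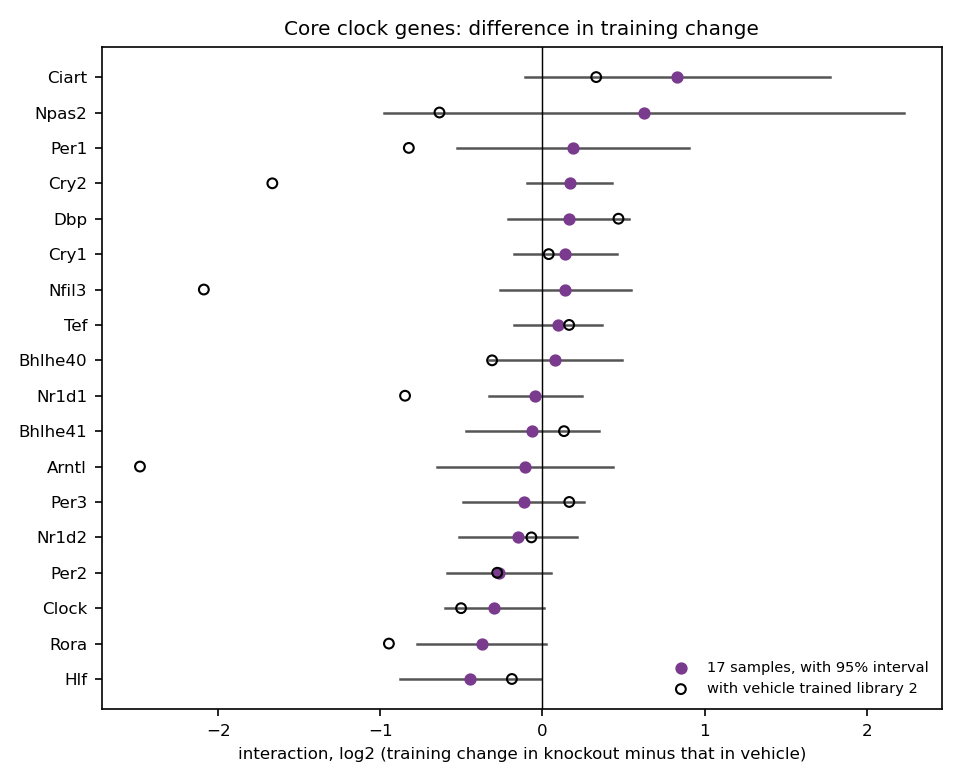
Interaction of 18 of the 19 core clock genes tested on the log2 scale, with 95% intervals from the fit of 17 samples (filled points) and the value with vehicle trained library 2 in the fit (open circles). In the 17 samples 17 of the 18 intervals include 0, and Cry2, Nfil3 and Arntl move below -1.6 with that library.

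Within the feedback loop the intervals were narrow for some genes and wide for others. The REV-ERB gene Nr1d1 had an interaction of -0.04 (95% interval -0.33 to 0.24), Tef 0.10 (-0.17 to 0.37, and -0.0096 with column-sum scaling) and Cry2 0.17 (-0.09 to 0.43). For Npas2, a partner of BMAL1, the interval ran from -0.98 to 2.23, and for the repressor Ciart (interaction 0.83) from -0.11 to 1.77. Clock was at 33.4, 32.3, 34.3, 37.6 and 29.3 CPM in vehicle sedentary and 31.9, 31.9, 35.2 and 32.0 CPM in vehicle trained samples. It was at 84.4, 87.3, 69.8, 75.5 and 80.3 CPM in knockout sedentary and 78.9, 48.3 and 50.5 CPM in knockout trained samples, so 1 trained sample stood with the sedentary ones. Its interaction was -0.30 (95% interval -0.60 to 0.01, unadjusted p = 0.0594). Per2, a repressor of CLOCK and BMAL1, was at 21.3, 22.3, 24.4, 22.5 and 17.5 CPM in knockout sedentary and 15.2, 14.5 and 13.1 CPM in knockout trained samples, without overlap. In vehicle it was at 41.5, 40.7, 45.4, 44.5 and 48.1 CPM in sedentary and 31.5, 35.5, 46.1 and 39.5 CPM in trained samples, with overlap. Its training change was -0.45 in the knockout (adjusted p = 0.0605, edgeR) and -0.18 in vehicle, and the difference between them was -0.27 (95% interval -0.59 to 0.05, unadjusted p = 0.0936). Arntl had an interaction of -0.11 (95% interval -0.65 to 0.44).

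Promoters were searched for 2 motifs on both strands, in the 250 bases before the first listed start of each gene (RefSeq, GRCm38.p6). These were AAGGTCA, the extended half-site bound by ERRalpha, and CACGTG, the E-box bound by BMAL1 and CLOCK, which do not overlap. AAGGTCA was found in 2.78% of the 10291 tested genes with a window (4.05% of all 27025 windows) and CACGTG in 8.44% (6.05%). AAGGTCA stood in 3 of 32 complex I windows, 2 of 34 of complexes II to V, 2 of 22 of fatty acid genes, 0 of 15 of the citric acid cycle and 0 of 16 of matrix genes. CACGTG stood in 5 of 16 core clock windows, 2 of 32 of complex I and 0 of 22 of fatty acid genes. Among the 10 higher and 10 lower genes with the smallest p, 7 of each had a window, and each motif was found in 1 of each 7. Those of Coq10a (chr10:128370038-128370287, minus strand) and Flrt2 (chr12:95691976-95692225, plus strand) are shown 5′ to 3′ as 1 example of each motif and each direction, with the match in capitals.
Coq10a: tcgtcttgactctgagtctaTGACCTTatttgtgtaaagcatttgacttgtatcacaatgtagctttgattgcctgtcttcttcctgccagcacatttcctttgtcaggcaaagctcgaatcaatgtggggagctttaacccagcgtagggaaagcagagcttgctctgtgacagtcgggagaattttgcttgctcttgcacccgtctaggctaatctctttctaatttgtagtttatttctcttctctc
Flrt2: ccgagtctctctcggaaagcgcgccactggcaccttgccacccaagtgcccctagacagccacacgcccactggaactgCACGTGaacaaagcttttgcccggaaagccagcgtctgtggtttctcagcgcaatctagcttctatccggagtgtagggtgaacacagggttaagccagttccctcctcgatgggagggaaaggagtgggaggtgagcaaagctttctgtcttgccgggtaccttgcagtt
The Coq10a match is in the reverse direction, TGACCTT, and begins 230 bases before the start. The Flrt2 match begins 171 bases before it. A match of letters is no measure of binding.

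Genes of glucose uptake and glycogen had interactions nearer 0. Of 15 genes of glucose uptake and glycogen, 1 (6.67%, against 6.04% of all genes) was higher at an unadjusted p under 0.05. The median interaction was 0.10 (-0.02 with column-sum scaling). Slc2a4, the insulin-responsive glucose transporter, had an interaction of 0.10 (95% interval -0.28 to 0.47) and Hk2, the muscle hexokinase, one of 0.06 (-0.38 to 0.51), and both were below 0 with column-sum scaling (-0.014 and -0.046). Pdk4, which blocks pyruvate dehydrogenase, had an interval too wide to place it, from -0.98 to 1.24. Glycolytic genes had a median of 0.25, with 5 of 17 (29.4%, against 6.04% of all genes) at an unadjusted p under 0.05, all higher. The median was 0.13 with column-sum scaling and 0.45 with vehicle trained library 2. The count was 9 without the sum of knockout trained 1 and 4, and 3 with column-sum scaling or without knockout sedentary replicate 1 or 3, vehicle trained replicate 3 or 4, knockout trained replicate 2 or the sum of 3 and 5. Gapdh, a glycolytic enzyme, rose in the knockout (0.49, adjusted p = 0.0347, edgeR), with 0.09 in vehicle. Ldhb, the lactate dehydrogenase subunit of oxidative muscle, had changes of -0.79 and 0.33 and an interaction of 1.12 (SE 0.345). In a list of metabolic genes linked to muscle BMAL1, the median was 0.08 (-0.02 with column-sum scaling). Of its 14 genes, 3 (21.4%, against 6.04% of all genes) were higher at an unadjusted p under 0.05. One was Dgat2, which makes triglyceride, with an interaction of 1.14 from -0.39 in vehicle and 0.75 in the knockout, and another was Pdk2 (0.41).

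Ribosome genes of the 2 compartments had different medians in the main fit. The 83 cytosolic ribosomal protein genes had nearly equal training changes, 0.51 in vehicle and 0.56 in the knockout, and a median interaction of 0.02 (-0.11 with column-sum scaling). That median was -0.27 without knockout trained replicate 2 and 0.28 without the sum of knockout trained 1 and 4. As mean log2(CPM + 1) over these genes, scaled by column sum, the interaction was -0.13 (SE 0.43). Only Rpl3l, the muscle form of a large-subunit protein, had an unadjusted p under 0.05 (interaction 0.41). Of the 75 mitochondrial ribosomal protein genes, 16 (21.3%, against 6.04% of all genes) did, all higher. The median of the 75 was 0.27 (0.15 with column-sum scaling), from 0.06 in vehicle and 0.35 in the knockout. On the per-sample scale their interaction was 0.13 (SE 0.13). Mrpl28, a large-subunit member, rose in the knockout (0.67, adjusted p = 0.0232, edgeR), with -0.03 in vehicle and an interaction of 0.70 (SE 0.156, adjusted p = 0.212). The count of 16 was 28 without vehicle trained replicate 1, 47 without the sum of knockout trained 1 and 4, and 9 with column-sum scaling.

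Of 17 angiogenesis genes 3 (17.6%) were higher at an unadjusted p under 0.05, against 6.04% of all genes. The count was 7 without knockout trained replicate 2, and the median of 0.22 was 0.11 without the sum of knockout trained 1 and 4. Vegfb, a growth factor linked to fatty acid transport across endothelium, rose in the knockout (0.60, adjusted p = 0.0341, edgeR), with -0.03 in vehicle and an interaction of 0.63 (SE 0.162). Angpt2, a vessel-remodelling ligand, had an interaction of 1.11 and Nos3, the endothelial nitric oxide synthase, one of 0.59. Of the 8 endothelial markers 3 (37.5%) were higher at an unadjusted p under 0.05, with a median of 0.29. The count was 0 with column-sum scaling or without the sum of knockout trained 1 and 4, and 1 without knockout sedentary replicate 1 or 2 or the sum of knockout trained 3 and 5. Their summed CPM ranged from 205.5 to 293.7 in vehicle sedentary and 189.99 to 234.8 in vehicle trained samples. It ranged from 246.5 to 296.3 in knockout sedentary and 199.8 to 322.7 in knockout trained samples. The median sum was lower in trained samples of both genotypes, 239.7 against 213.0 in vehicle and 275.8 against 238.9 in the knockout. As mean log2(CPM + 1) over the 8 markers, scaled by column sum, the interaction was 0.069 (SE 0.23). The 16 neuromuscular and developmental genes did not share a direction, with 7 positive and 9 negative interactions and a median of -0.07. At an unadjusted p under 0.05, 3 (18.8%) were higher. They were the acetylcholine receptor subunits Chrna1 (0.61) and Chrnd (0.91) and cardiac actin, Actc1 (0.80). As mean log2(CPM + 1) over the 16 genes, the interaction was -0.057 (SE 0.17). The 7 Schwann cell markers were all positive (median 0.82), with 2 (28.6%) at an unadjusted p under 0.05. The count was 0 without the sum of knockout trained 3 and 5 and 1 without vehicle sedentary replicate 2 (median 0.47) or vehicle trained replicate 3. The part of nerve in the samples was not tested.

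In the list of atrophy, growth and stress genes, 3 of 23 (13%) were lower and 1 (4.35%) higher at an unadjusted p under 0.05. Of all genes 5.4% were lower and 6.04% higher. The ubiquitin ligase Fbxo30 fell by 0.49 in the knockout (adjusted p = 0.0357, edgeR), with 0.00 in vehicle and an interaction of -0.49 (SE 0.142). Igfbp5, an IGF-binding protein, had an interaction of -0.63 and Mstn, the growth inhibitor myostatin, one of -0.50. The higher gene was Klf15, a glucocorticoid-induced factor of amino acid and lipid breakdown, at 0.35, and it stood at -1.30 with vehicle trained library 2. Lower genes in this list numbered 10 with that library, 8 with column-sum scaling and 7 without knockout trained replicate 2. Chaperones (median 0.06, and -0.07 with column-sum scaling, 3 of 20 at an unadjusted p under 0.05), immediate early genes (0.15, 0 of 15) and interferon and MHC genes (-0.03, 0 of 19) showed no shared direction. Blood (median 0.24), adipocyte (0.06), tendon (0.05), smooth muscle (0.10) and satellite cell markers (-0.02) held 0 genes at an unadjusted p under 0.05. With column-sum scaling the adipocyte (-0.07), tendon (-0.08) and smooth muscle (-0.02) medians were below 0. The blood median was -0.53 without knockout trained replicate 2 and 0.68 without the sum of knockout trained 1 and 4. The adipocyte median was -0.44 without knockout trained replicate 2 and 0.86 without vehicle trained replicate 1. Both depended on single samples.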

How the data were processed

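The authors deposited 1 table of estimated counts per gene for 20 mouse muscle libraries; 72.0% of its values are whole. The submitters' processing notes name Partek, STAR 2.7.8a and DESeq2, and both mm10 and GRCm39; the counting rule and strand setting are not given in the sources used here. Each column named 1 sample, and 0 other columns of values were found. Total counts per library were between 10610333 and 19153527. Intervals given are 95%.

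Counts were rounded, and the tested genes reached a CPM of 1 in 5 or more of the 20 libraries. Levels are CPM by column sum. The test was edgeR 4.0.16 (glmQLFit, glmQLFTest, R 4.3.3) with TMM scaling, 4 group means and a two-sided contrast, adjusted by Benjamini-Hochberg over all tested genes at a threshold of 0.05. The script was tested on simulated data. DESeq2 1.42.0, limma 3.58.1 (voom), other scalings, filters, a replicate block and leaving out each sample were alternatives. DESeq2 without independent filtering was added after seeing the data.

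Genes are named by this rule: the core clock; the 10 higher and 10 lower genes with the smallest interaction p (mean CPM at least 5); up to 4 members of each list with the smallest p; 5 genes with opposite training changes; and Ppargc1a, Sln, Myh7, Slc2a4, Hk2 and Pdk4. Not all of them are printed, and some are not reported here. Members, lists and rule were chosen with earlier results of these data known. Overlapping exons were read from GENCODE and promoters from RefSeq GRCm38.p6.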

Additional observations from a re-analysis of the deposited data

Results flagged for a closer look

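Groups of 4 or 5 samples were searched for a sample standing far from the rest of its group, over 14 genes and 34 gene lists. Of 144 such groups of values 8 held one, where chance gives about 7.2. Single genes were Esrra in vehicle sedentary sample 3, the lowest of its group at 101 CPM; Coq10a in vehicle sedentary sample 2, the highest at 268 CPM; Clock in vehicle trained sample 4, the highest at 35.2 CPM; and Arntl in knockout sedentary sample 1, the highest at 18.9 CPM. Among lists, as mean log2(CPM + 1), immediate early genes were lowest in vehicle trained sample 5, at 2.95. In knockout sedentary samples, endurance regulators were highest in sample 4, at 5.59. In the same group neuromuscular genes were lowest in sample 3, at 4.36, and mitochondrial ribosomal proteins lowest in sample 5, at 4.99.

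Vehicle trained library 2, outside the fit, differed by more than 2-fold from the mean of its group's other libraries at 3744 genes, where sedentary samples differed from theirs at up to 146.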

How the results depend on the processing

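With vehicle trained library 2 in the fit, 1076 genes had an unadjusted interaction p under 0.05 and 0 were called for training in the knockout. Named genes whose interaction then changed sign were Klf15 -1.30, Cry2 -1.67, Ppargc1a -1.20, Npas2 -0.63, Nfil3 -2.09, Per3 0.17, Per1 -0.82, Bhlhe40 -0.31, Bhlhe41 0.13, Pdk4 -0.37 and Hk2 -0.66. List medians that changed sign by more than their spread were those of the core clock (-0.28), endurance regulators (-0.027), immediate early genes (-0.48), chaperones (-0.32), proteasome (-0.32), satellite cell (0.21) and neutrophil and T cell markers (-0.48). The cause was not tested. With column-sum scaling Tef was -0.0096, Slc2a4 -0.014, Bhlhe40 -0.035 and Hk2 -0.046. In limma-voom with quality weights Per1 was -0.31 and Tef -0.010. Of the neutrophil and T cell markers only 2 were tested, S100a9 and Cd3e, at low mean levels of 0.70 and 0.99 CPM. Their median was -0.075 in limma-voom. The proteasome median was -0.013 with column-sum scaling. Leaving out 1 sample at a time gave from -0.28 to 0.43 for Per1, from -0.094 to 0.45 for Pdk4, from -0.42 to 0.052 for Arntl, from -0.044 to 0.19 for Bhlhe40 and from -0.18 to 0.018 for Bhlhe41. It gave from -0.058 to 0.16 for Hk2, from -0.11 to 0.012 for Nr1d1, from -0.014 to 0.19 for Slc2a4 and from -0.0049 to 0.16 for Tef. It gave medians from -0.50 to 0.72 for neutrophil and T cell, from -0.057 to 0.13 for satellite cell and from -0.044 to 0.13 for core clock genes.

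Genes called for the interaction, for training in vehicle and for training in the knockout numbered 116, 22 and 715 with DESeq2, and 87, 22 and 655 without its independent filtering. They numbered 1162, 3 and 3714 in limma-voom with quality weights, where 3674 genes had an unadjusted interaction p under 0.05. Training counts in vehicle and knockout were 1 and 513 with all libraries separate and 1 and 338 with column-sum scaling. With a replicate block the 3 counts were 2, 1 and 0, and Per3 was 0.016 and Bhlhe41 0.062. Deviations from the group mean had r from -0.52 to 0.39 in same-numbered samples (median 0.05, 21 pairs). In differently numbered samples r ran from -0.48 to 0.52 (median -0.02, 86 pairs). These pairs share samples, so they cannot decide whether the numbers pair the samples. The block left 10 complex I genes, 12 of complexes II to V and 1 slow contractile gene at an unadjusted p under 0.05. With it 23 matrix genes (median -0.99), 7 fibroblast markers and 5 macrophage markers were lower at that threshold. The 2 interaction calls with the block were matrix genes.

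Leaving out 1 sample at a time gave 0 interaction calls each time and from 1179 to 2087 genes at an unadjusted p under 0.05. It gave from 0 to 1 calls for training in vehicle and from 0 to 1760 for training in the knockout. Of 2809 values of 97 named genes under alternatives, 2685 kept direction and did not pass the adjusted threshold, which no gene passed in the main fit. Of the rest, 86 passed the adjusted threshold and 38 changed sign. Many of these genes were named by their small p, and the alternatives share most samples, so these counts are no independent check. Of 985 list medians, 947 moved by less than the spread between samples. With 3 trained knockout samples, the median SE of 0.22 limits single genes.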
